A study of Mus musculus with 9 samples.

Results

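The genes described are Nnt, Paip1, Tmem267, Ccl28, Nim1k and Zfp131, which lie side by side at the distal end of mouse chromosome 13 and were measured by RNA sequencing in the hypothalamus of Clic1 knockout (KO) and wild-type (WT) mice. These 6 genes were picked by symbol, and Nnt has 2 gene records in the annotation, so that they make up 7 of the 14351 gene records measured. They were chosen with their KO and WT values known. The differences between KO and WT given for them are therefore a description, without a test. The KO animals were male whole-body Clic1 knockouts, the WT animals were male littermates according to the study's methods, and both were fed normal chow. Libraries were taken as 1 per mouse. KO is represented by 5 mice, numbered 2, 4, 6, 8 and 10, and WT by 4 mice, numbered 1, 3, 9 and 11. Ages of the sequenced mice were not given. The sample labels name the strain C57b/6J, whereas the methods describe a CD-1 background, and the values below cannot settle which applies.

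Nnt encodes the nicotinamide nucleotide transhydrogenase of the inner mitochondrial membrane, which uses the proton gradient to make NADPH from NADH for the disposal of peroxides. The C57BL/6J strain is known for a deletion within Nnt, which makes this locus a common place to look for differences in strain background. Ccl28 encodes a chemokine of mucosal epithelia that acts through the receptors Ccr10 and Ccr3. Paip1 binds the poly(A)-binding protein and promotes translation, Nim1k is a serine/threonine kinase related to AMPK, and Zfp131 is a zinc finger protein with a BTB domain. Tmem267 is predicted to be a transmembrane protein, and its role is little studied.

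Clic1 itself, the targeted gene, was measured first. Its level was 0.733 to 1.93 normalized CPM (read counts relative to library size and scaled between libraries by the authors) in the KO libraries and 3.58 to 5.52 CPM in the WT libraries, without overlap (log2 fold change -1.80, SE 0.27, adjusted p = 0.0153, limma; -1.84, SE 0.29, without KO replicate 10). Replicate 10 carries conflicting labels, since its title and treatment say WT and its description names it as a K library. It was placed with KO by its description. Clic1 stood at 1.43 CPM in it, within the 0.733 to 1.93 CPM of the other KO libraries and below every WT library. Replicate 10 stood apart from the other libraries. Its estimated depth was the greatest, at 20.8 M reads where the other libraries had 5.47 to 10.97 M, and its median Spearman correlation with them over all genes was 0.974, against 0.990 to 0.993 for each other library. Log2 fold changes without it are given for the 6 genes. For other genes whose log2 fold change is printed, they are given where it moved by over 1.5 times. All 10 hypothalamic marker genes examined were present, and of 8 white adipose markers only Pnpla2 was present (Adipoq, Plin1, Fabp4, Cidec, Lep, Cfd and Retn were not among the genes listed), although one label field mentions perigonadal fat. The choroid plexus marker Ttr and the blood markers Hba-a1, Hba-a2, Hbb-bs and Hbb-bt were not listed either. Absence from the genes listed is therefore only a weak sign that a gene was not expressed. In bulk tissue, fewer cells of a type and less RNA per cell cannot be told apart.

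The members span 0.455 Mb of chromosome 13 on build GRCm38 (chr13:119335448-119790889). In chromosomal order they are Nnt (chr13:119335448-119408997, minus strand), Paip1 (chr13:119428601-119458218, plus strand), Tmem267 (chr13:119488039-119611059, plus strand), Ccl28 (chr13:119623819-119654359, plus strand), Nim1k (chr13:119710094-119755882, minus strand) and Zfp131 (chr13:119765187-119790889, minus strand). Tmem267 ends 12.8 kb before Ccl28 begins. The uncharacterised gene 4833420G17Rik lies between Paip1 and Tmem267, and Hmgcs1, the cytosolic HMG-CoA synthase of cholesterol synthesis, lies between Ccl28 and Nim1k. No measured gene with a known position lay beyond Zfp131 on the distal side.

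Tmem267 has an unusual gene model, which bears on what its value counts. Its pair of coding exons occurs at 2 places in the assembly, 114 kb apart. The first exon lies at chr13:119492634-119493015 and again at chr13:119606649-119607030, and the second at chr13:119495135-119495505 and, in a longer form, at chr13:119609192-119610436. Over the 753 bases compared, 0 differed. Both places belong to the same gene record, so the value of Tmem267 pools them and could not show from which of them the RNA came. The first 120 coding bases, found identically at chr13:119492635-119492754 and chr13:119606650-119606769 on the plus strand, are shown as an example of the repeated stretch, with the start codon in capitals.
Tmem267 coding start: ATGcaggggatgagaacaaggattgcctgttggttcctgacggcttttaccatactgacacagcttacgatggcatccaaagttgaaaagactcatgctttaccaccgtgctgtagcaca

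Promoter sequences are shown for Ccl28 and Tmem267 because these neighbouring genes both differed between KO and WT. RefSeq windows on GRCm38.p6, each of 300 bases with 250 of them before the annotated start, were matched by symbol for 5 of the 6 genes (8 windows). The bases printed end just before the transcript starts of the annotation used for positions. They are chr13:119623569-119623818 for Ccl28, with a GC box in capitals, and chr13:119487855-119488038 for Tmem267, both on the plus strand. The Tmem267 bases are only part of the RefSeq window chr13:119487836-119488135 and stop short of its RefSeq start. They hold none of the motifs searched. The whole window holds 1 GC box, outside the bases printed, and another Tmem267 window (chr13:119488223-119488522) holds 3.
Ccl28 promoter: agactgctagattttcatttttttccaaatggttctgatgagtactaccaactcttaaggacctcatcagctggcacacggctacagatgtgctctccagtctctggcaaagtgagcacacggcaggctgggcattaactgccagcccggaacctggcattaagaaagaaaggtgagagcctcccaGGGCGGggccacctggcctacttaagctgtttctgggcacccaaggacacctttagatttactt
Tmem267 promoter: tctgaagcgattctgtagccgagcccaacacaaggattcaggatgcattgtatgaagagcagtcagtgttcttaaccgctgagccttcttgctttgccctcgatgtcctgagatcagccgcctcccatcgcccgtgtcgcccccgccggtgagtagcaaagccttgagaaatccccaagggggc

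The Ccl28 window was the poorest in G and C of the 8 (50.8%, with 4 CG pairs), close to the median of all 32851 windows (52.4%, with 6 CG pairs). The other 7 windows held 58% to 82.8% G and C and 9 to 43 CG pairs. The GC box, searched as GGGCGG on both strands, was found in 7 of the 8 windows (those of Ccl28, Paip1, Tmem267 and Zfp131) and in 32.7% of all windows. The CCAAT box was found in 2 of the 8 (Nim1k and 1 of Zfp131) and in 33.8% of all windows, and the TATA box, searched as TATAAA, in 0 of the 8 and in 12.4% of all windows. Each motif was searched on both strands, no motif contains another, and a match is only a description of the letters.

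Tmem267 and Ccl28 were lower in KO than in WT, and the KO and WT libraries of the other 4 genes overlapped, for Paip1 through KO replicate 10 alone. These 2 records were the only ones of the 7 past an adjusted p of 0.05 in limma, and both were lower in KO. Of all 14351 records 0.286% passed in either direction and 0.146% passed as lower. The count stayed at 2 without KO replicate 2 or KO replicate 10, and was 0 when any 1 of the other 7 libraries was left out or replicate 10 was counted as WT. The same 2 records were those in which no KO library reached the level of a WT library, which held for 3.41% of all records in either direction and for 1.74% with KO below WT. The median log2 fold change of the 7 records was -0.06, beside 0.00 for all records.

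Tmem267 stood at 23.8, 16.7, 20.0, 20.95 and 13.2 CPM in KO replicates 2, 4, 6, 8 and 10, and at 28.6, 38.5, 35.9 and 36.2 CPM in WT replicates 1, 3, 9 and 11. Every KO library lay below every WT library, and the gap was narrowest between KO replicate 2 and WT replicate 1. The mean was 18.9 ± 4.08 CPM in KO (SD, n = 5) and 34.8 ± 4.32 CPM in WT (SD, n = 4), so that the KO mean was 45.6% below that of WT (log2 fold change -0.89, SE 0.16). KO replicate 10 was the lowest library. Without it the KO mean was 20.4 ± 2.92 CPM (n = 4) and the log2 fold change -0.77 (SE 0.11), and with it counted as WT the log2 fold change was -0.50 (SE 0.27).

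Ccl28, the chemokine gene, stood at 6.95, 6.72, 6.23, 7.04 and 4.25 CPM in KO replicates 2, 4, 6, 8 and 10, and at 12.7, 11.2, 11.4 and 12.8 CPM in WT replicates 1, 3, 9 and 11. The groups were well separated, and within each group the libraries were close together apart from KO replicate 10. The mean was 6.24 ± 1.15 CPM in KO (SD, n = 5) and 12.02 ± 0.839 CPM in WT (SD, n = 4), with the KO mean 48.1% below that of WT (log2 fold change -0.95, SE 0.16). Without KO replicate 10 the KO mean was 6.73 ± 0.364 CPM (n = 4) and the log2 fold change -0.82 (SE 0.12), and with that library counted as WT it was -0.53 (SE 0.28). These values rest on an estimated 34.0 to 140 reads per library, the fewest of the 6 genes.

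**Figure D1:**
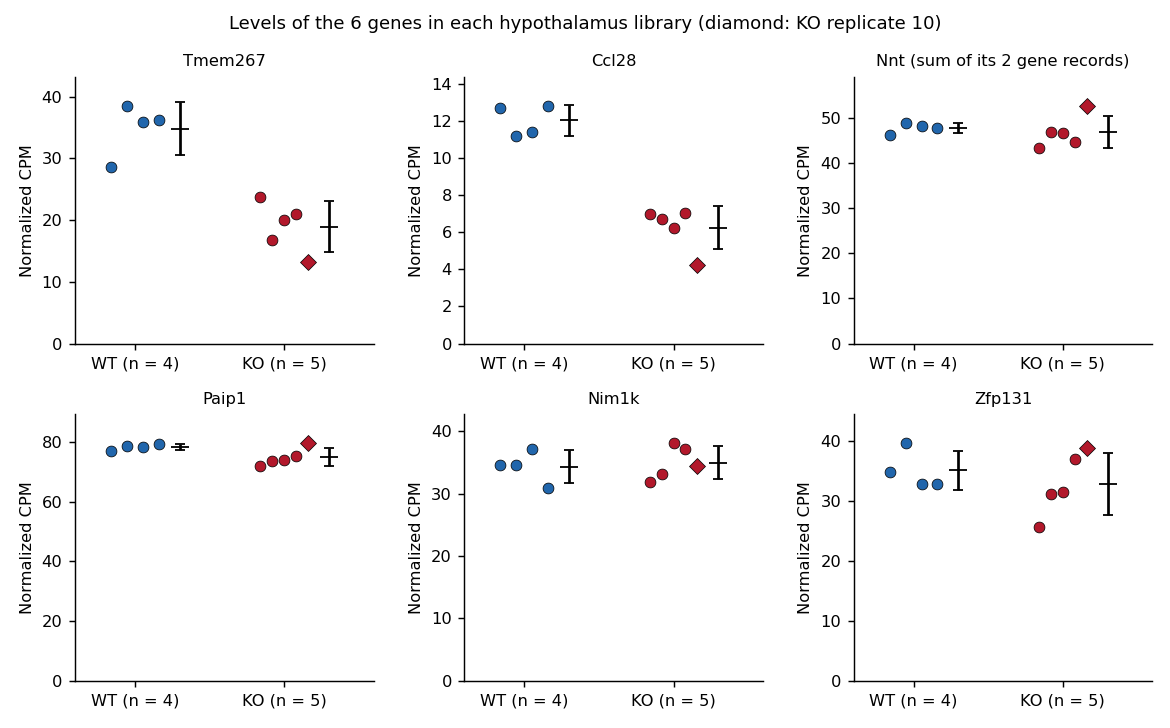
Normalized CPM (y axis, from 0) of the 6 genes in each WT (blue) and KO (red) library, 1 point per mouse, with the group mean and SD in black beside the points and KO replicate 10 as a diamond. For Tmem267 (WT 28.6 to 38.5, KO 13.2 to 23.8 CPM) and Ccl28 (WT 11.2 to 12.8, KO 4.25 to 7.04 CPM) the groups are apart, and for Nnt, Paip1, Nim1k and Zfp131 they overlap, for Paip1 only through the diamond at 79.6 CPM.

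The WT mean was 1.84 times the KO mean for Tmem267 and 1.93 times for Ccl28. The ratio of Ccl28 to Tmem267 CPM was 0.333 ± 0.0417 in KO (SD, n = 5, 0.292 to 0.402) and 0.351 ± 0.0665 in WT (SD, n = 4, 0.290 to 0.443), with overlapping groups. Set against Paip1, the member before them on the chromosome, the ratio of Tmem267 was 0.254 ± 0.0616 in KO and 0.444 ± 0.0511 in WT, and that of Ccl28 was 0.0838 ± 0.0176 in KO and 0.153 ± 0.0111 in WT. Neither of these 2 ratios overlapped between the groups (0.166 to 0.331 against 0.371 to 0.491, and 0.0534 to 0.0966 against 0.142 to 0.165). Since Tmem267 and Ccl28 were already apart and Paip1 varied little, these ratios restate the same values and add no further support.

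Likeness of pattern was measured over the 9 libraries as the root-mean-square difference between centred log2 values, where a small value means a like profile. Since all such genes share the split between KO and WT, this is a description of these libraries. For Tmem267, the closest of all genes was Ccl28 (0.192), followed by Mrs2 (0.208), a mitochondrial magnesium channel, and 6720489N17Rik (0.219). All 3 lie on chromosome 13, although Mrs2 and 6720489N17Rik start 94.5 and 56.9 Mb from Tmem267. For Ccl28, the closest were Mrs2 (0.161), Tmem267 (0.192) and Cenpx (0.198), a centromere protein gene on chromosome 11. The profiles of Tmem267 and Ccl28 themselves deviated from their own means by 0.507 and 0.518 on the same scale. Mrs2 was lower in KO (45.6 against 82.7 CPM, log2 fold change -0.86, SE 0.10, adjusted p = 0.0027, limma). In the same limma fit 6720489N17Rik (log2 fold change -0.55, SE 0.15, adjusted p = 0.412) and Cenpx (log2 fold change -0.60, SE 0.14, adjusted p = 0.188) did not pass the test. These genes were picked for likeness to genes split between KO and WT. Their p-values are therefore a description and add no support.

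**Figure D2:**
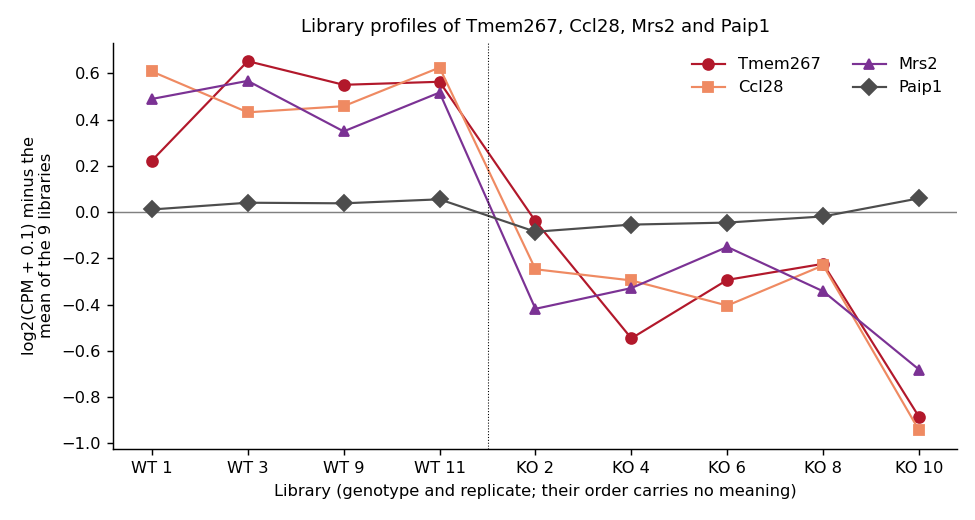
log2(CPM + 0.1) of Tmem267, Ccl28, Mrs2 and Paip1 minus the mean of the 9 libraries (y axis) in each WT and KO library (x axis), where lines only join the points of a gene. Tmem267, Ccl28 and Mrs2 lie above 0 in the 4 WT libraries and below 0 in the 5 KO libraries, lowest in KO replicate 10, while Paip1 stays near 0.

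Over all 9 libraries, Nnt, the transhydrogenase gene, differed between KO and WT by less than the spread between libraries. Without KO replicate 10, Nnt differed more, though the groups still overlapped (summed records 45.4 ± 1.70 CPM in KO, 47.7 ± 1.13 CPM in WT). Its RNA was divided in the annotation between ENSMUSG00000025453 and ENSMUSG00000116207, both on the minus strand and covering almost the same bases (chr13:119335448-119408997 and chr13:119335528-119408952). The only transcript of ENSMUSG00000116207 (3339 bases, 17 exons) is contained whole in a transcript of ENSMUSG00000025453 (3464 bases, 17 exons), which has 45 bases more at its start and 80 more at its end. Reads within the shared bases could not be told apart, so the values of each single record are uncertain, and the sum is the safer measure.

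The sum of both Nnt records was 43.3, 46.8, 46.7, 44.7 and 52.7 CPM in KO replicates 2, 4, 6, 8 and 10, and 46.1, 48.8, 48.1 and 47.7 CPM in WT replicates 1, 3, 9 and 11. The WT libraries fell within the range of the KO libraries, which reached above WT only in replicate 10. The mean was 46.8 ± 3.58 CPM in KO (SD, n = 5) and 47.7 ± 1.13 CPM in WT (SD, n = 4), with a log2 fold change of -0.03 (SE 0.07), or -0.07 (SE 0.06) without KO replicate 10. Without that library the KO mean was 45.4 ± 1.70 CPM (n = 4), and the groups still overlapped.

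The single Nnt records were far more variable than their sum. ENSMUSG00000025453 ranged from 7.69 CPM in WT replicate 11 to 17.1 CPM in KO replicate 2, with 11.5 ± 3.40 CPM in KO and 11.8 ± 2.92 CPM in WT (log2 fold change -0.05, SE 0.22, and -0.08, SE 0.21, without KO replicate 10). ENSMUSG00000116207 ranged from 26.1 CPM in KO replicate 2 to 40.5 CPM in KO replicate 10, with 35.4 ± 5.44 CPM in KO and 35.8 ± 2.995 CPM in WT (log2 fold change -0.03, SE 0.12, and -0.08, SE 0.11, without KO replicate 10). The sign of both differences turned with the library left out. KO replicate 2 was thus highest for one record and lowest for the other. The coefficient of variation over the 9 libraries was 25.8% and 12.003% for the single records and 5.64% for the sum. The share of the sum assigned to ENSMUSG00000025453 ran from 16.1% in WT replicate 11 to 39.6% in KO replicate 2, with a median of 23.0%, and overlapped between KO (19.9% to 39.6%) and WT (16.1% to 29.6%). By the likeness of pattern, Kcng1 (0.195), Ssc4d (0.195) and Jpt2 (0.202) were closest to ENSMUSG00000025453, and 1700003E16Rik (0.0587), Tmem120a (0.0810) and Rhebl1 (0.0817) to ENSMUSG00000116207. None of these 6 genes lies on chromosome 13. None passed the test between KO and WT, but this followed from the choice. They were picked for likeness to records without such a difference.

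**Figure D3:**
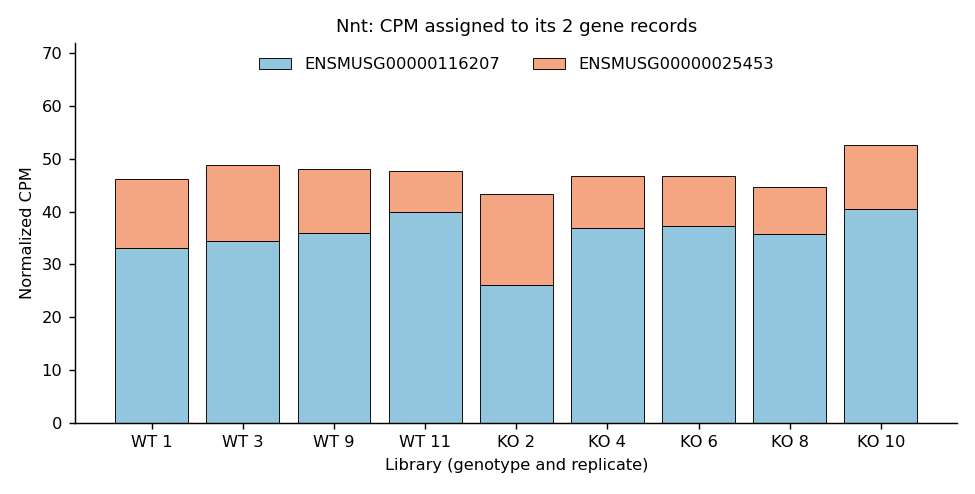
Stacked bars of normalized CPM (y axis, from 0) assigned to the Nnt records ENSMUSG00000116207 (blue) and ENSMUSG00000025453 (orange) in each library (x axis). The height of the whole bar stays between 43.3 and 52.7 CPM, while the orange part takes 16.1% to 39.6% of it.

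The assembly used is that of C57BL/6J, so exons absent from that strain are not part of either Nnt record. Whether the RNA of these mice held them was not tested, and a like total in KO and WT does not show which allele the mice carried. Genes known to differ between C57BL/6 substrains were examined beside Nnt, and 0 of 3 passed the test in limma, with 0 at an unadjusted p under 0.05. Gabra2, a GABA-A receptor subunit, was at 215 ± 30.8 CPM in KO and 231 ± 23.1 CPM in WT (log2 fold change -0.11, SE 0.11, and -0.02 without KO replicate 10). Wdfy1, an endosomal adaptor, was at 88.5 ± 4.75 CPM in KO and 92.8 ± 0.783 CPM in WT (log2 fold change -0.07, SE 0.06). Entpd4, an intracellular nucleotide phosphatase, was at 47.6 ± 7.76 CPM in KO and 47.4 ± 2.99 CPM in WT (log2 fold change -0.00, SE 0.11, and -0.10 without KO replicate 10). For all 3, the libraries of KO and WT overlapped.

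Paip1, Nim1k and Zfp131 differed little in their means. Paip1, which promotes translation, was the steadiest of the 7 records, with a coefficient of variation of 3.65% over the 9 libraries. It stood at 71.99, 73.5, 74.0, 75.4 and 79.6 CPM in KO replicates 2, 4, 6, 8 and 10, and at 77.0, 78.5, 78.4 and 79.3 CPM in WT replicates 1, 3, 9 and 11 (log2 fold change -0.06, SE 0.06). All KO libraries but replicate 10 lay below the WT libraries, and replicate 10 was the highest of all 9. Without it the KO mean was 73.7 ± 1.39 CPM (SD, n = 4) against 78.3 ± 0.991 CPM in WT (SD, n = 4), without overlap, and the log2 fold change was -0.09 (SE 0.05).

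Nim1k, the kinase gene, stood at 31.8, 33.1, 38.1, 37.1 and 34.5 CPM in KO replicates 2, 4, 6, 8 and 10, and at 34.6, 34.6, 37.2 and 30.9 CPM in WT replicates 1, 3, 9 and 11. Its group means were 34.9 ± 2.64 CPM (SD, n = 5) and 34.3 ± 2.61 CPM (SD, n = 4), with a log2 fold change of 0.02 (SE 0.09), or 0.03 (SE 0.08) without KO replicate 10. The groups overlapped widely, and the sign turned without KO replicate 6 or WT replicate 11. Zfp131, the zinc finger gene, stood at 25.8, 31.2, 31.5, 37.1 and 38.8 CPM in the KO libraries and at 34.9, 39.7, 32.9 and 32.9 CPM in the WT libraries, in the same orders of replicates. Its means were 32.9 ± 5.19 CPM (SD, n = 5) and 35.1 ± 3.20 CPM (SD, n = 4), with a log2 fold change of -0.11 (SE 0.12), or -0.17 (SE 0.10) without KO replicate 10. Its groups also overlapped, with the lowest value in KO replicate 2.

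To compare levels between the genes, mean CPM was divided by the length of the longest coding transcript in kb. In WT, Paip1 was highest at 30.7 ± 0.389 CPM per kb, followed by Tmem267 at 19.5 ± 2.41, the sum of Nnt at 13.8 ± 0.327, Zfp131 at 11.3 ± 1.028, Nim1k at 8.37 ± 0.637 and Ccl28 at 3.21 ± 0.224 (SD, n = 4). In KO the order differed in the place of Tmem267. Paip1 was at 29.4 ± 1.13 CPM per kb, the sum of Nnt at 13.5 ± 1.034, Tmem267 at 10.6 ± 2.28, Zfp131 at 10.6 ± 1.67, Nim1k at 8.51 ± 0.644 and Ccl28 at 1.67 ± 0.308 (SD, n = 5). Tmem267 and Zfp131 could not be ordered in KO. The level of Tmem267 depends on the transcript taken, since its coding transcripts run from 880 to 1789 bases.

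The genes around and between the members were examined next. Within 1 Mb of the span there were 4 further measured genes, of which 0 passed the test in limma and 1 had an unadjusted p under 0.05, with a median log2 fold change of -0.08. Over all 14351 records, 933 had an unadjusted p under 0.05 in the same limma fit. 4833420G17Rik, which ends 1.92 kb before Tmem267 begins, was at 48.5 ± 5.72 CPM in KO and 43.2 ± 2.81 CPM in WT (log2 fold change 0.16, SE 0.09, adjusted p = 0.825, limma; 0.10, SE 0.07, without KO replicate 10). Hmgcs1, which begins 36.0 kb after Ccl28 ends, was at 275 ± 20.3 CPM in KO and 304 ± 12.1 CPM in WT (log2 fold change -0.15, SE 0.07, unadjusted p = 0.0434, adjusted p = 0.759, limma). Its libraries did not overlap but nearly met, with the highest KO library at 294.3 and the lowest WT library at 294.9 CPM. On the proximal side, the growth factor gene Fgf10 (log2 fold change -0.27, SE 0.13, adjusted p = 0.776, limma) and the mitochondrial ribosomal gene Mrps30 (log2 fold change -0.01, SE 0.09, adjusted p = 0.987, limma; -0.0058 without KO replicate 10) did not pass.

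Within 5 Mb there were 12 such genes, and 0 passed the test in limma, with 3 at an unadjusted p under 0.05 (933 of all 14351 records). Their log2 fold changes ran from -0.27 to 0.31, with a median of -0.03, and the smallest adjusted p was 0.559 (Mocs2, of molybdenum cofactor synthesis). Over the whole of chromosome 13, 8 of 546 measured records (1.47%) passed, Tmem267 and Ccl28 among them, and all 8 were lower in KO. Of all 14351 records 0.286% passed, 21 as lower and 20 as higher in KO. The other 6 lie more than 5 Mb proximal to the members.

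**Figure D4:**
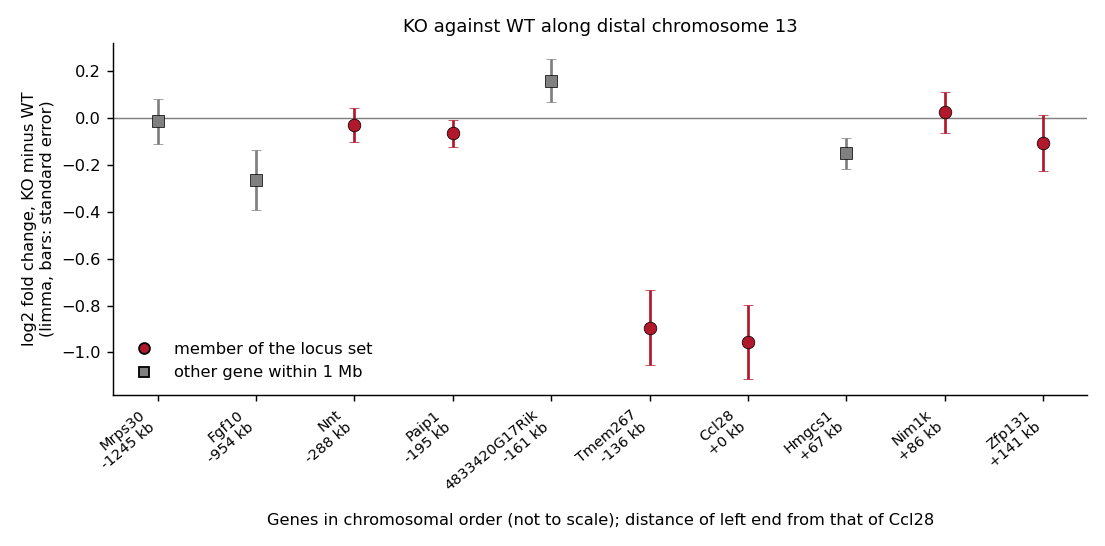
log2 fold change of KO minus WT (y axis, limma, bars show the standard error) of the 6 genes (red circles, Nnt as the sum of its records) and the 4 other measured genes within 1 Mb (grey squares), in chromosomal order along the x axis with the distance of each gene's left end from that of Ccl28 in kb. Tmem267 (-0.89) and Ccl28 (-0.95) lie far below 0, and the other 8 lie between -0.27 and 0.16.

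Genes related in role to the members were examined by lists. The background for their counts at an unadjusted p under 0.05 (limma) is 933 of all 14351 records. Of 18 genes of mitochondrial NADPH supply and peroxide disposal, the pathway Nnt feeds, 18 were measured and 0 passed the test in limma in either direction, with 2 at an unadjusted p under 0.05. Their median log2 fold change was 0.01, beside 0.00 for all records. They ran from the peroxiredoxin gene Prdx3 (26.9 ± 2.95 CPM in KO, 31.4 ± 2.91 CPM in WT, log2 fold change -0.22, SE 0.10, adjusted p = 0.759, limma) to the glutathione reductase gene Gsr (31.7 ± 2.39 CPM in KO, 26.2 ± 1.19 CPM in WT, log2 fold change 0.27, SE 0.08, adjusted p = 0.506, limma).

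Of 12 chemokines, chemokine receptors and Ccl28 receptors, 10 were measured and 0 passed the test in limma, with 0 at an unadjusted p under 0.05 and a median log2 fold change of 0.01. The Ccl28 receptor Ccr10 was at 1.98 ± 0.586 CPM in KO and 1.64 ± 0.185 CPM in WT (log2 fold change 0.22, SE 0.25, adjusted p = 0.889, limma). The other receptor, Ccr3, and Ccl17 were not among the genes listed. The lowest log2 fold change was that of the microglial receptor Cx3cr1 (-0.23, SE 0.14, and -0.10 without KO replicate 10) and the highest that of the scavenging receptor Ackr1 (0.27, SE 0.16, and 0.40 without that library).

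Beside Paip1, a list of 11 genes acting at the poly(A) tail and the cap was examined, and 11 were measured. Of these 0 passed the test in limma, with 2 at an unadjusted p under 0.05 and a median of 0.04. They ran from the cap-binding gene Eif4e (-0.14, SE 0.06) to the poly(A)-binding gene Pabpc4 (0.17, SE 0.13, and 0.09 without KO replicate 10). Of 17 AMPK catalytic subunits, AMPK-related kinases and their upstream Stk11 complex, 17 were measured and 0 passed, with 1 at an unadjusted p under 0.05 and a median of 0.00. They ran from Nuak2 (-0.19, SE 0.26) to the microtubule kinase Mark4, at 69.0 ± 10.1 CPM in KO and 53.5 ± 1.75 CPM in WT (log2 fold change 0.36, SE 0.10, adjusted p = 0.444, limma). The Mark4 call turned on KO replicate 10, since without that library the log2 fold change was 0.43 and the adjusted p = 0.00602 (limma).

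Marker genes of the cell types a hypothalamic dissection can hold were summed as a rough description of tissue makeup. Such a sum follows the most abundant genes of its list. The summed CPM of 6 endothelial markers was 193 to 219 in KO and 177 to 193 in WT, with an overlap of 1 library in each group. That of 6 microglial markers was 136 to 160 in KO and 148 to 184 in WT. Single microglial genes had log2 fold changes from -0.24 to 0.68, with a median of -0.17. The 6 oligodendrocyte markers summed to 3481 to 3943 CPM in KO, against 3709 to 4550 CPM in WT, and the 6 ependymal markers to 34.7 to 39.7 CPM in KO, against 33.4 to 43.1 CPM in WT. Of 8 choroid plexus markers 4 were listed (86.01 to 113 CPM in KO, 91.9 to 112 CPM in WT), and Ttr, Folr1, Kcne2 and Slc4a5 were not. Of 5 blood markers only Alas2 was listed; the KO libraries held 9.79 to 13.4 CPM of it, the WT libraries 7.58 to 10.3 CPM. The 10 hypothalamic markers summed to 661 to 866 CPM in KO, against 607 to 655 CPM in WT, without overlap, and of them Avp passed the test as higher (log2 fold change 0.90, adjusted p = 0.0027, limma). Single hypothalamic genes ran from -0.34 to 0.90 with a median of 0.00, so the sum does not stand for each gene. Without KO replicate 10 the KO sums were 661 to 810 CPM for the hypothalamic, 3638 to 3943 CPM for the oligodendrocyte, 103 to 113 CPM for the choroid plexus and 34.7 to 38.9 CPM for the ependymal markers, Alas2 was at 9.79 to 12.02 CPM, and the endothelial and microglial ranges were as above. The part of these differences in the levels of Tmem267 and Ccl28 was not tested.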

How the data were processed

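Hypothalamic RNA (RIN above 8, TruSeq libraries; strandedness not given in the sources used here) was sequenced on a NovaSeq. Per the labels and methods, the authors used FastQC 0.11.8, Trimmomatic 0.38, STAR 2.5.1a on GRCm38.p6, RSEM 1.3.0 with Ensembl 98, kept genes of at least 1 CPM in at least 5 samples, and normalized with edgeR. The deposited signal is TMM-normalized CPM. The authors' table of fold changes and p-values was used only for gene symbols. In the values there was 1 further column that matched no sample and was not used. Its header begins with W, like those of the WT libraries.

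Values were fitted as log2(CPM + 0.1) with limma 3.58.1 in R 4.3.3 (intensity trend, condition as the only term, all 9 libraries), with Benjamini-Hochberg adjustment over 14351 records and a threshold of 0.05. The study's voom model needs counts, so it served only as an alternative, on reads estimated from the steps between low CPM values. RSEM values are fractional, and 81.3% to 86.5% of values up to 2.5 CPM lay within 0.03 reads of a whole read, so depths (5.47 to 20.8 M reads) are approximate. The fit was tested on simulated data. Fold changes on this scale understate those of low genes. The labels do not state that libraries came from separate mice, and p-values measure only the spread between libraries.

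Positions came from GENCODE mouse release 21 on GRCm38 and promoter windows from RefSeq (GRCm38.p6). No other gene matched a member's longest transcript by blastn 2.17.0 (at least 95% identity over at least 200 bases). The genes named were the 6 members, the measured genes within 1 Mb, the 3 genes most like Nnt, Tmem267 and Ccl28, list genes past the threshold or at the ends of their list, the substrain genes and Clic1; Ccr10, Mocs2 and Avp were named after their values were seen. Members and lists were chosen with earlier results of these data known. As alternatives, the pseudocount, the scaling, the variance model and the minimum level of a gene were varied, with sample weights, voom, replicate 10 as WT, leaving out each library, an adjusted p under 0.1, a 5 Mb window and, chosen after seeing the data, the Nnt records summed.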

Additional observations from a re-analysis of the deposited data

Results flagged for a closer look

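Of 26 groups of 4 or 5 libraries examined for the members, their neighbours and Clic1, 1 held a library far from the others. Mrps30, a mitochondrial ribosomal gene proximal to Nnt, was at 28.6 CPM in WT replicate 9 and at 22.7 to 23.1 CPM in the other WT libraries. About 1 in 20 groups is expected to be picked out in this way by chance.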

How the results depend on the processing

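Tmem267 and Ccl28 kept their direction in 19 of 19 alternatives each, with log2 fold changes of -0.99 to -0.77 and -1.003 to -0.82 when each library was left out in turn, and of -0.50 and -0.53 with replicate 10 counted as WT. With every KO library below every WT library, leaving out a library could not turn the sign. The minimum level, the intensity trend and the summed Nnt records could not alter the fold change. Their kept direction is thus no independent support. The number of member records past the threshold (2) was 1 with a mean of at least 5 CPM, 1 with no intensity trend, 0 with replicate 10 as WT, and 0 to 2 when each library was left out. It stayed at 2 only without KO replicate 2 or KO replicate 10, and was 0 without KO replicates 4, 6 or 8 or WT replicates 1, 3, 9 or 11. The number over all genes (41) was 135 with sample weights, 27 with a mean of at least 5 CPM, 5 with replicate 10 as WT, and 18 (without WT replicate 1) to 87 (without KO replicate 10) when each library was left out. In the AMPK-related kinases it was 1 (Mark4) with sample weights, and 0 to 1 when each library was left out. Fewer samples or genes enter some of these fits; otherwise the cause was not tested. Of 155 values for counts 133 were within 1.5 times the main count or equal, and of 133 for single genes 131 moved by less than the spread between replicates. Most values for counts belong to neighbours and lists with a main count of 0, which mostly stayed at 0. The pooled share therefore says little about the counts of 2 and 41, which moved in many fits. Log2 fold changes near 0 changed sign in some fits, which were 4 for Nnt ENSMUSG00000025453 and 2 for Nnt ENSMUSG00000116207 (of 18 each) and 2 of 19 for Nim1k, all of them with 1 library left out; leave-one-out values ran from -0.24 to 0.06, -0.08 to 0.07 and -0.03 to 0.06. No paired analysis was possible because KO and WT share no replicate numbers. Among the members, Ccl28 had the fewest reads behind its values.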
